A study of Mus musculus with 6 samples.

Results

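The genes of the circadian clock were examined in RNA-seq of the hypothalamic arcuate nucleus (ARC) of male mice fed a normal-chow diet (NCD) or a high-fat diet (HFD). They were *Arntl* (also named *Bmal1*), *Clock*, *Per1*, *Per2*, *Per3*, *Cry1*, *Cry2*, *Nr1d1*, *Nr1d2* and *Dbp*, chosen by name as the core loop and its direct outputs, and they are 10 of the 22322 genes in the deposited table. None of the 10 passed an adjusted p of 0.05 between the diets in edgeR's quasi-likelihood test, which 0.0564% of all genes tested did. *Dbp* was 1.54-fold higher in HFD and *Per1* was at 0.673 of its NCD level, and in both genes the normalized counts of the 3 HFD samples lay on 1 side of those of the 3 NCD samples, as they did in 6.47% of all genes. The other 8 genes overlapped between the diets, and so did *Per1* on the deposited length-scaled values.

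In the mouse clock, ARNTL pairs with CLOCK and activates genes that carry E-boxes, among them the *Per* and *Cry* genes and the *Nr1d* genes. PER and CRY proteins return to the nucleus and block their own activators, and the REV-ERB receptors made from *Nr1d1* and *Nr1d2* repress *Arntl*, so that RNA of *Arntl* and of *Per* and *Dbp* peaks at opposite times of day. DBP carries the rhythm on to genes with D-boxes. The suprachiasmatic nucleus is the master clock of the brain, and the ARC holds a clock of its own that responds to feeding.

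From an age of 4 weeks, the mice ate NCD with 16.5% fat or HFD with 60% fat for 16 weeks. The ARC area rich in Kiss1 neurons was cut from frozen brain sections by laser capture microdissection (LCM), and so each sample held RNA of neurons and glia. The study used C57BL/6J wild-type mice and also a cross of Kiss1-Cre with R26R-EYFP mice to see the area, and which of these alleles the sequenced mice carried is not given in the sources used here. Each diet had 3 samples, NCD1 to NCD3 and HFD1 to HFD3. Whether a sample came from 1 mouse or from several is not stated, so p-values measure only the spread between these samples, which may be technical. The mice lived in a light-dark cycle, but the time of day at which brains were taken is not given in the sources used here, and a difference of diet and a difference of time of collection cannot be told apart. In bulk tissue, fewer cells of a type and less RNA per cell cannot be told apart either.

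The counts of all genes summed to 15925648 for NCD1, 9937632 for NCD2 and 6882449 for NCD3, and to 8024664 for HFD1, 10479778 for HFD2 and 5171381 for HFD3. CPM values are counts scaled to the normalized library total. A count of 3, taken as the smallest detectable amount, was instead scaled to the library total before normalization. It corresponds to 0.188 CPM in NCD1 and 0.58 CPM in HFD3, which covers counting error only. Every clock gene was far above this limit, the lowest single count being 93 for *Per2* in NCD3. The ARC label was checked with 10 markers of its neurons, all of which had counts, with *Cartpt* the most abundant. *Kiss1* had 0 counts in NCD1 and in HFD1 against 21 to 42 in the other samples, and of its 779 exonic bases 498 are shared with a gene model named *Gm28040*, and all with a second model of that name that held 3 counts over the 6 samples. The first model had 70 counts in NCD1 and 99 in HFD1, the samples where *Kiss1* had 0, against 15 to 39 in the other samples, and the division of reads between the models was not tested.

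Levels between genes were compared per length, with the deposited FPKM (fragments per kilobase of a transcript and per unit of library size). *Dbp* was the highest of the 10, with a mean of 48.2 FPKM over the 6 samples, above 85.8% of the genes tested. *Nr1d1* followed at 26.9 FPKM, then *Cry2* at 20.7 FPKM and *Nr1d2* at 19.2 FPKM. A middle group of similar levels held *Per1* at 11.9 FPKM, *Cry1* at 10.8 FPKM, *Per3* at 9.17 FPKM, *Arntl* at 9.15 FPKM and *Clock* at 8.70 FPKM. *Per2* was lowest at 3.12 FPKM, above 24.3% of the genes tested. The lowest *Dbp* value, 34.25 FPKM, was above the highest *Nr1d1* value, 30.56 FPKM, and the lowest *Clock* value, 6.47 FPKM, was above the highest *Per2* value, 4.04 FPKM. All other neighbours in this order overlapped in their sample values.

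**Figure D1:**
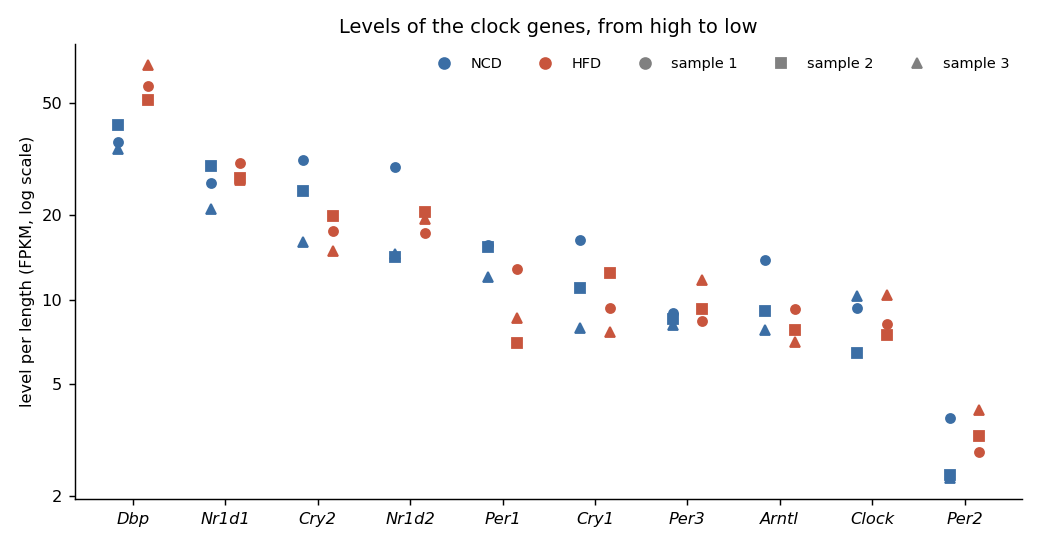
The plot of levels per length gives the FPKM (log scale) of the 10 clock genes in each of the 6 samples, NCD in blue and HFD in red, ordered by the mean. *Dbp* stands at the top between 34.25 and 68.4 FPKM and *Per2* at the bottom between 2.32 and 4.04 FPKM, with the other genes overlapping between them.

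RefSeq start-site windows (GRCm38.p6, 250 bases before to 50 bases after a start) were at hand for 9 of the 10 genes, 13 windows in all; *Per2* had no entry. Each was searched on both strands for the E-box CACGTG, the E-box variant CACGTT, the D-box TTATGTAA, the core AGGTCA bound by REV-ERB and ROR receptors, the cAMP response element (CRE) TGACGTCA and its part TGACG. The E-box was in the windows of *Cry1* and *Per1* and in 7.15% of all 32851 windows. The variant was in *Cry1*, *Cry2* and *Nr1d1* and in 4.68% of all windows. The D-box was in *Per3* and in 0.938% of all windows. AGGTCA was in *Arntl*, *Clock*, *Nr1d2* and *Per1* and in 16.3% of all windows. The full CRE was in none of the 13 windows and in 1.79% of all windows, and TGACG was in *Cry1*, *Cry2* and *Per1* and in 20.8%. No matches in these genes overlapped each other. A match is a description of letters and not a bound site.

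The windows below are those of the 2 genes whose samples did not overlap between the diets, *Per1* (window at chr11:69098699-69098998, plus strand) and *Dbp* (chr7:45704997-45705296, plus strand). With them stand the D-box gene *Per3* (chr4:151044616-151044915, minus strand) and *Cry1* (chr10:85185005-85185304, minus strand), which holds both E-box forms. Capitals mark the E-box, the E-box variant, the D-box and AGGTCA, on either strand, so that AACGTG is the variant and TGACCT is AGGTCA read from the other strand. *Per1* has a second RefSeq window, which holds only TGACG.
Per1: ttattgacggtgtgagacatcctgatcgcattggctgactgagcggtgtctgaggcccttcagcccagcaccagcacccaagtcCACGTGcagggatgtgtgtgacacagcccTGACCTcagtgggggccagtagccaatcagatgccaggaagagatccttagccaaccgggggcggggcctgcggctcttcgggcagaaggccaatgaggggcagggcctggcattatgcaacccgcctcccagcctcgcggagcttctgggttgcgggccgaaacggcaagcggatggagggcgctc
Dbp: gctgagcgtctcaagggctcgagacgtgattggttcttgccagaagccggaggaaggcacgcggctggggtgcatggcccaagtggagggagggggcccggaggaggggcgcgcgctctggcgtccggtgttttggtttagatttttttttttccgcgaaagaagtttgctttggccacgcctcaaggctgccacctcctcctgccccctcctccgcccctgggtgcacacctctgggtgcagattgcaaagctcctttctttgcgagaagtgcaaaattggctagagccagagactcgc
Per3: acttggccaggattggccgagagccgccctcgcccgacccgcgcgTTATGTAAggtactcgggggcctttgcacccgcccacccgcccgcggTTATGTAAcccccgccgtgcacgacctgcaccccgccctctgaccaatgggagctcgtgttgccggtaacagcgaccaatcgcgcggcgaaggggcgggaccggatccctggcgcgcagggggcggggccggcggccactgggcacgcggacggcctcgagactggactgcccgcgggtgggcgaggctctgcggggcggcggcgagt
Cry1: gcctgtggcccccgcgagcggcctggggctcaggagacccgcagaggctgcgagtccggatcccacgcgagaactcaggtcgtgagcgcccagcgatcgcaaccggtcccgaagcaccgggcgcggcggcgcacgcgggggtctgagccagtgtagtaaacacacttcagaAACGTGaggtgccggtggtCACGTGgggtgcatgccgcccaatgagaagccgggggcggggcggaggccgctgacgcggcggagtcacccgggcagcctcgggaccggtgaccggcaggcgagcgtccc

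The *Per1* window holds an E-box 166 bases before the start and AGGTCA 137 bases before it. The *Per3* window holds D-boxes 205 and 158 bases before the start. In *Cry1* the E-box lies 60 bases and its variant 79 bases before the start. The *Dbp* window holds none of the 6 motifs, which says only that these letters are not in this window.

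The diets were compared with edgeR's quasi-likelihood test on the counts, over 14188 genes with Benjamini-Hochberg adjustment. Adjusted p-values under 0.05 were reached by 8 genes, 0.0564% of those tested, and by 0 of the 10 clock genes, with an adjusted p = 0.999 for each of the 10 in this edgeR fit; DESeq2 and limma called 0 of the 10 as well. At an unadjusted p under 0.05, 2 of the 10 passed, against 2.3% of all genes. *Dbp* was the 1 that was higher, against 1.21% of all genes, and *Per1* the 1 that was lower, against 1.09%. The groups did not overlap in these same 2 genes, against 6.47% of all genes. The point estimates were positive in 5 clock genes and negative in 5. Their median absolute log2 fold change was 0.25, beside 0.17 over all genes tested, and the 95% interval included 0 in 8 of the 10.

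**Figure D2:**
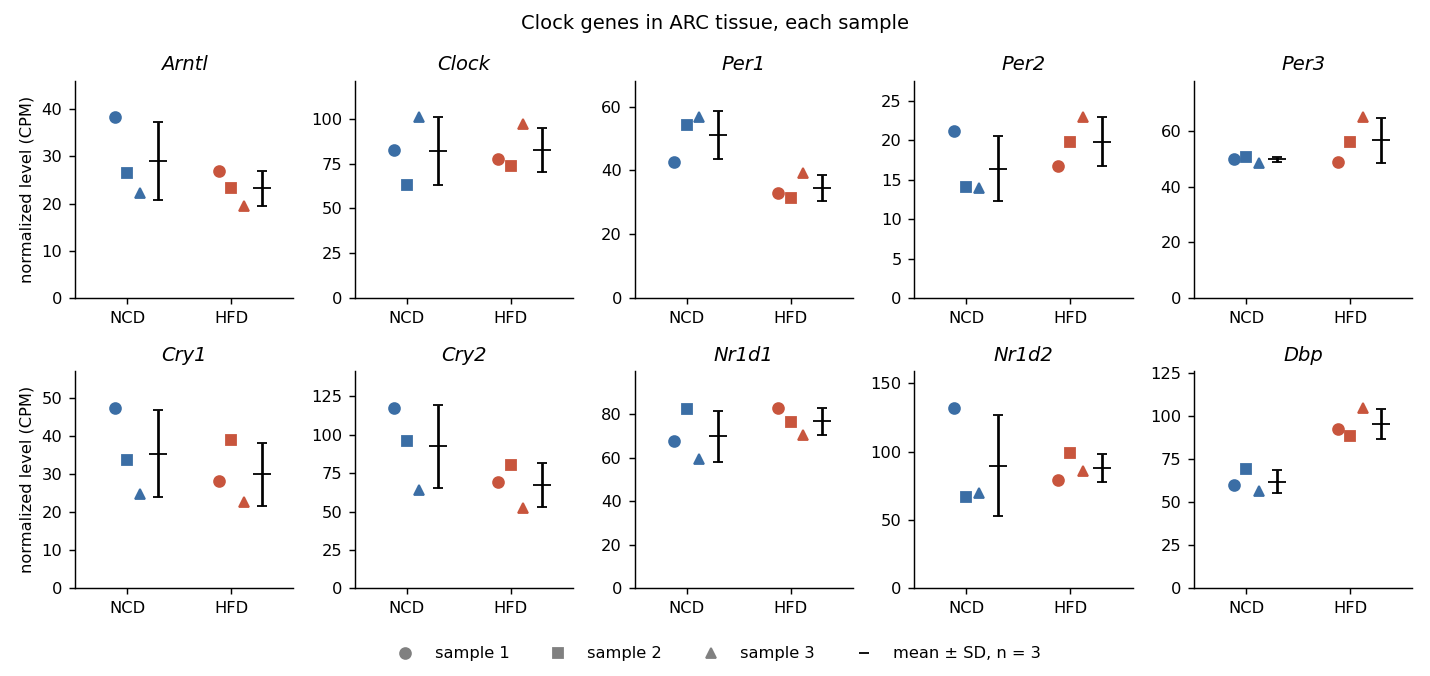
Each panel gives the normalized level in CPM of a clock gene in each sample, by diet, with symbols for the samples 1, 2 and 3 and the mean ± SD of 3 samples in black. *Dbp* is higher and *Per1* lower in all 3 HFD samples, and in the other 8 panels the diets overlap.

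*Dbp* (chr7:45705088-45710203, plus strand, GRCm38) encodes the albumin D-box binding protein, a PAR bZIP activator and a direct output of ARNTL and CLOCK. Its level was 59.7 CPM in NCD1, 69.1 CPM in NCD2 and 56.3 CPM in NCD3, and 92.3 CPM in HFD1, 88.4 CPM in HFD2 and 105 CPM in HFD3. The lowest HFD sample was thus above the highest NCD sample. The means were 61.7 ± 6.66 CPM under NCD and 95.2 ± 8.55 CPM under HFD (SD, n = 3 each). The log2 fold change was 0.62 (SE 0.19, 95% interval 0.21 to 1.04), with an unadjusted p = 0.00623 in edgeR's quasi-likelihood test, and the gene ranked 42 by p among all genes. A two-sided exact permutation test gave p = 0.1, the smallest that 3 samples against 3 allow. The unadjusted p stayed under 0.05 in all 6 fits that left out a sample, with log2 fold changes from 0.55 to 0.71. The deposited FPKM did not overlap either, at 37.4 ± 3.88 in NCD and 59.0 ± 8.70 in HFD (SD, n = 3 each). *Sphk2*, a sphingosine kinase gene on the opposite strand, shares 539 of the 2993 exonic bases of *Dbp*, and whether reads were counted by strand is not given in the sources used here. *Sphk2* itself averaged 27.8 ± 5.49 CPM under NCD and 27.2 ± 3.97 CPM under HFD (SD, n = 3 each), and the counts of both genes summed gave a log2 fold change of 0.45 with an unadjusted p = 0.0327 in edgeR's test.

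*Per1* (chr11:69095217-69109960, plus strand) encodes the PER protein whose RNA is also known to be induced quickly by light, neuronal activity and glucocorticoids. It was at 42.6 CPM in NCD1, 54.3 CPM in NCD2 and 56.7 CPM in NCD3, and at 32.8 CPM in HFD1, 31.4 CPM in HFD2 and 39.1 CPM in HFD3. The highest HFD sample, HFD3, was thus below the lowest NCD sample, NCD1. The means were 51.2 ± 7.53 CPM under NCD and 34.5 ± 4.10 CPM under HFD (SD, n = 3 each), a log2 fold change of -0.57 (SE 0.21, 95% interval -1.02 to -0.12). The unadjusted p was 0.0168 in edgeR's quasi-likelihood test, and the two-sided exact permutation test gave p = 0.1, its smallest possible value. In edgeR's test the unadjusted p was 0.0612 without NCD2, 0.0718 without HFD1 and 0.0587 without HFD2, with log2 fold changes of -0.53, -0.54 and -0.51.

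The other PER genes had point estimates above 0. *Per2* (chr1:91415982-91459324, minus strand), whose protein is the main PER repressor together with PER1, was at 21.3, 14.0 and 14.0 CPM in NCD1 to NCD3 and at 16.8, 19.8 and 23.0 CPM in HFD1 to HFD3. NCD1 stood among the HFD samples, and the log2 fold change was 0.26 (SE 0.25, 95% interval -0.29 to 0.81). It was 0.48 without NCD1, 0.16 without NCD2 or NCD3 and 0.15 without HFD3. *Per3* (chr4:151003652-151044665, minus strand), which is not needed for a running clock, had the steadiest NCD values of the 10 genes, 50.2, 50.7 and 48.8 CPM, a coefficient of variation of 2.01%. Its HFD values were 48.8, 56.2 and 65.1 CPM, so that HFD1 lay at the NCD level and the other HFD samples above it, and the log2 fold change was 0.18 (SE 0.19, 95% interval -0.24 to 0.60). It was 0.07 without HFD3 and 0.28 without HFD1.

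The cryptochrome genes, whose proteins are the strong repressors of the loop, had point estimates below 0. *Cry2* (chr2:92403646-92434043, minus strand) was at 118, 96.2 and 63.9 CPM in NCD1 to NCD3 and at 69.4, 80.1 and 52.1 CPM in HFD1 to HFD3. NCD1 and NCD2 were above all HFD samples and NCD3 lay below HFD1 and HFD2. The means were 92.6 ± 27.1 CPM and 67.2 ± 14.1 CPM (SD, n = 3 each), and the log2 fold change was -0.46 (SE 0.25, 95% interval -1.01 to 0.08), with an unadjusted p = 0.0884 in edgeR's test. The estimate moved with single samples, from -0.66 without NCD3 (unadjusted p = 0.0125 in the same edgeR test, in a fit where 8.13% of all genes passed) to -0.26 without NCD1 (unadjusted p = 0.306) and -0.31 without HFD3 (unadjusted p = 0.259). *Cry1* (chr10:85131700-85185064, minus strand) was at 47.4, 33.7 and 24.8 CPM in NCD and at 28.2, 38.9 and 22.6 CPM in HFD, with the diets interleaved, and its log2 fold change was -0.24 (SE 0.28, 95% interval -0.84 to 0.36). Without NCD1 the log2 fold change of *Cry1* was 0.02, and without HFD2 it was -0.48. Opposite-strand transcripts that were not analysed here share 295 of the 6320 exonic bases of *Cry2* (*D930015M05Rik*) and 33 of the 7523 of *Arntl* (*Gm45355*).

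The activators and the REV-ERB genes overlapped between the diets. *Arntl* (chr7:113207465-113314126, plus strand) was at 38.3, 26.5 and 22.3 CPM in NCD and at 26.8, 23.4 and 19.4 CPM in HFD, a log2 fold change of -0.33 (SE 0.25, 95% interval -0.87 to 0.22). NCD1 alone was above all HFD samples, and without it the log2 fold change was -0.08. *Clock* (chr5:76209868-76304792, minus strand), which is known to cycle little, averaged 82.2 ± 19.1 CPM under NCD and 82.8 ± 12.4 CPM under HFD (SD, n = 3 each), with an estimate of 0.01 on the log2 scale (SE 0.22, 95% interval -0.47 to 0.49), and from -0.15 without NCD2 to 0.19 without NCD3. Its highest value in each diet was in sample 3, 101 CPM in NCD3 and 96.9 CPM in HFD3. *Nr1d1* (chr11:98767932-98775333, minus strand), the gene of REV-ERB alpha, averaged 69.7 ± 11.5 CPM under NCD and 76.6 ± 6.27 CPM under HFD (SD, n = 3 each), a log2 fold change of 0.14 (SE 0.20, 95% interval -0.29 to 0.56) that ranged from 0.04 without NCD3 to 0.27 without NCD2. *Thra*, a thyroid hormone receptor gene on the opposite strand, shares 263 of the 3077 exonic bases of *Nr1d1* and averaged 200 ± 79.3 CPM under NCD and 269 ± 53.1 CPM under HFD (SD, n = 3 each). The counts of both genes summed gave a log2 fold change of 0.36 (SE 0.26). *Nr1d2* (chr14:18204054-18239127, minus strand), the gene of REV-ERB beta, varied most within NCD, at 132 CPM in NCD1 against 66.8 CPM in NCD2 and 70.0 CPM in NCD3, a coefficient of variation of 41.2%. Its HFD samples lay between, at 79.3, 99.0 and 86.0 CPM, and its log2 fold change was -0.03 (SE 0.26, 95% interval -0.60 to 0.54). It was 0.35 without NCD1, -0.20 without NCD2 and -0.17 without NCD3.

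For *Per1* the counts and the deposited FPKM ordered the samples differently. Its FPKM was 15.6, 15.4 and 12 in NCD1 to NCD3 and 12.9, 7.02 and 8.61 in HFD1 to HFD3, so that HFD1 stood above NCD3 and the diets overlapped, and a two-sided exact permutation test gave p = 0.2. The transcript length implied by a count and its FPKM was 2853, 3492 and 4565 bases in NCD1 to NCD3 and 2552, 4336 and 4672 bases in HFD1 to HFD3. The longest was thus 1.83 times the shortest, a ratio larger than in 96.7% of 11888 genes, whose median ratio was 1.05. The annotation lists 6 transcripts of *Per1*, from 496 to 4671 bases. In the other 9 clock genes the ratio was at most 1.11, the value of *Cry2*, and it was 1.09 in *Dbp*. *Per1* in limma on log2(FPKM + 1) had a log2 fold change of -0.57 (SE 0.24) with an unadjusted p = 0.0374.

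**Figure D3:**
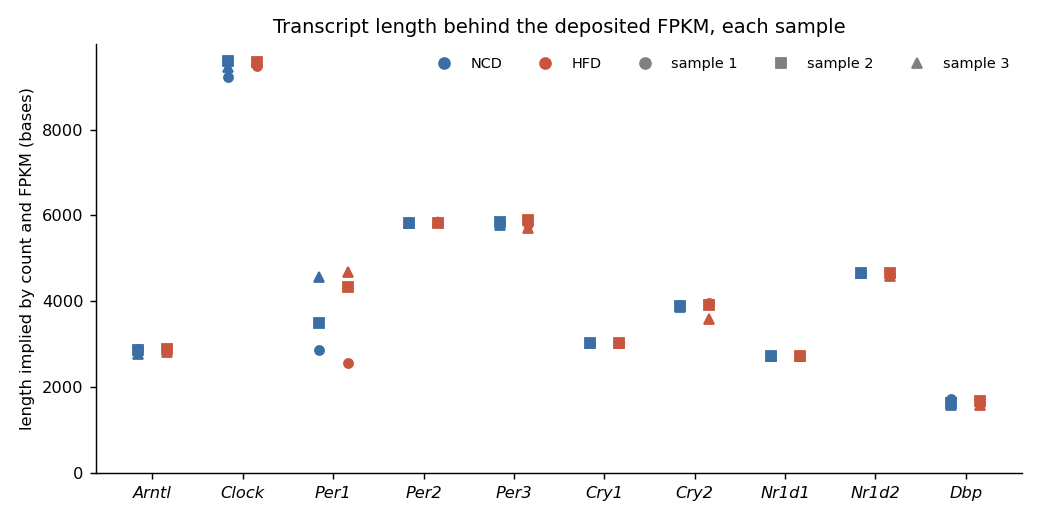
The plot of implied lengths gives, for each clock gene and sample, the transcript length in bases that links the deposited count to the deposited FPKM, NCD in blue and HFD in red. *Per1* spreads from 2552 to 4672 bases, while the longest of the 9 other genes' lengths is at most 1.11 times the shortest.

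Ratios between genes within a sample put output and loop genes side by side without a test, since these genes had been seen to differ. They were read on FPKM and on counts, whose lengths differ for *Per1* as given above. Of 11 ratios, 4 did not overlap between the diets on FPKM and 7 on counts, and 3 did not on both. These 3 all had *Dbp* above the line. Most of the 11 ratios held *Dbp* or *Per1*, which were already apart in CPM. The share over ratios of other genes was not computed, so these counts are not a separate result. *Dbp* over *Per1* was 2.32, 2.72 and 2.85 on FPKM in NCD1 to NCD3 and 4.46, 7.29 and 7.94 in HFD1 to HFD3. *Dbp* over *Arntl*, genes whose RNA peaks at opposite times of day, was 3.86 ± 1.08 on FPKM under NCD and 7.47 ± 1.92 under HFD (SD, n = 3 each). *Dbp* over *Nr1d1*, both direct outputs, was 1.47 ± 0.134 on FPKM under NCD and 2.11 ± 0.397 under HFD (SD, n = 3 each).

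The other ratios depended on the scale or overlapped on both. *Nr1d1* over *Arntl* was apart on FPKM by little, at most 3.27 under NCD and at least 3.29 under HFD, and overlapped on counts. *Per3* over *Per1*, *Per1* over *Per2*, *Dbp* over *Tef* and *Cry2* over *Cry1* overlapped on FPKM and were apart on counts. On counts *Per3* over *Per1* ran from 0.859 to 1.18 under NCD and from 1.49 to 1.79 under HFD. *Per1* over *Per2* ran from 2.01 to 4.05 and from 1.59 to 1.96, and *Cry2* over *Cry1* from 2.48 to 2.86 and from 2.06 to 2.46. *Dbp* over *Tef* ran from 0.214 to 0.374 and from 0.385 to 0.574. *Dbp* over *Per2*, *Nr1d1* over *Nr1d2* and *Clock* over *Arntl* overlapped on both scales.

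The order of the samples by CPM was set beside their order by library total. The CPM of *Cry1* had the same order as the library totals across all 6 samples, from 22.6 CPM in HFD3, the smallest library, to 47.4 CPM in NCD1, the largest, and 2.54% of the genes tested had that order. *Cry2* had the order of the totals within both diets, and *Per1* the reverse order within both diets. Orders like that of *Cry2*, counting those with all 6 in order, were found in 12.9% of genes, and reversed ones like that of *Per1* in 12.5%. The other 7 clock genes had none of these orders. Once the log2 library total entered the model as a second term, the log2 fold change was -0.72 for *Per1* (SE 0.17), 0.58 for *Dbp* (SE 0.17), -0.15 for *Cry2* (SE 0.16) and 0.11 for *Cry1* (SE 0.18). Genes without such an order moved too, *Nr1d2* to 0.26 (SE 0.20), *Arntl* to -0.07 (SE 0.20), *Clock* to -0.12 (SE 0.18), *Per2* to 0.36 (SE 0.25), *Nr1d1* to 0.19 (SE 0.17) and *Per3* to 0.14 (SE 0.17). Within each diet the share of counts from mitochondrial genes ran in the reverse order of the totals, from 3.20% in NCD1 to 6.57% in NCD3 and from 3.51% in HFD2 to 5.77% in HFD3, and its part in these values was not tested.

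**Figure D4:**
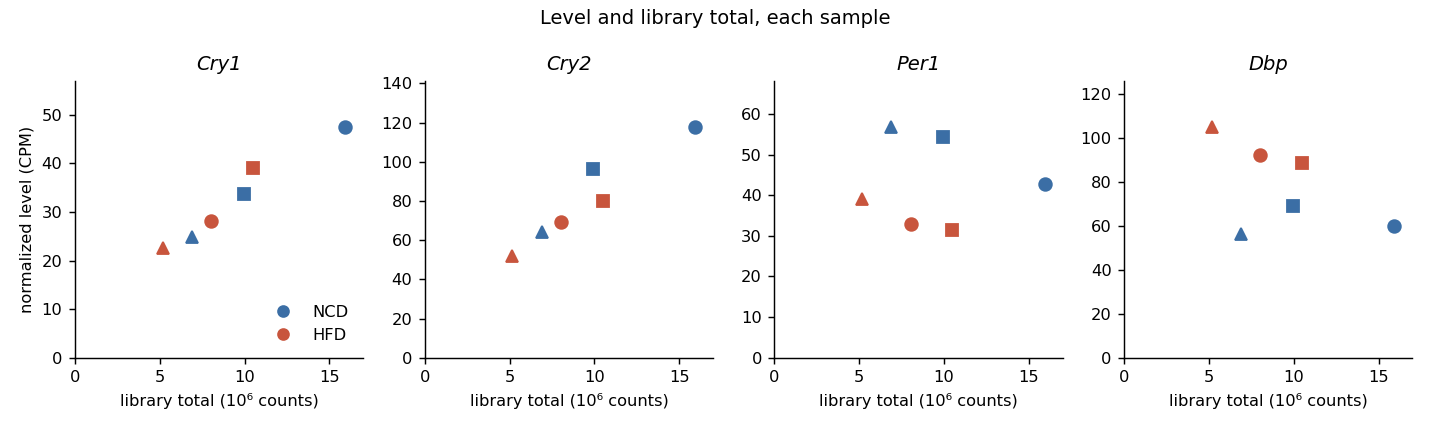
Each panel gives the CPM of a gene in each sample against the library total, NCD in blue and HFD in red. *Cry1* climbs with the total from 22.6 to 47.4 CPM, *Per1* runs the other way within each diet, and *Dbp* separates the diets over the whole range of totals.

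The wider clock pathway held 32 further genes in lists by role, all of which were tested. Their point estimates were positive in 15 and negative in 17, with a median log2 fold change of -0.07, beside 0.003 over all genes. At an unadjusted p under 0.05, 2 were higher and 0 lower, beside 1.21% and 1.09% of all genes, and 0 passed the adjusted threshold in edgeR's test. The 2 were clock outputs: *Tsc22d3*, which encodes the glucocorticoid-induced leucine zipper, and *Hif3a*, a hypoxia-inducible factor subunit gene. Of the 10 outputs listed, 6 had estimates below 0, among them *Pdk4* (-0.48, SE 0.38) and *Rgs16* (-0.39, SE 0.35), and the median log2 fold change was -0.15. *Tsc22d3* averaged 163 ± 1.93 CPM under NCD and 272 ± 61.3 CPM under HFD (SD, n = 3 each), a log2 fold change of 0.74 (SE 0.22) with an unadjusted p = 0.00559 in edgeR's test. *Hif3a* rested on few reads, 5, 9 and 12 under NCD and 29, 41 and 13 under HFD, with a log2 fold change of 1.88 (SE 0.60). In CPM every HFD sample was above every NCD sample in both genes, as the diets were apart in 6.47% of all genes. On the deposited FPKM *Hif3a* overlapped, at 0.28, 0.14 and 1.18 in NCD1 to NCD3 and 0.56, 0.68 and 0.39 in HFD1 to HFD3.

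The relatives of *Dbp* at D-boxes overlapped between the diets. *Tef*, a PAR bZIP activator like DBP, was at 51.7 FPKM under NCD and 45.9 FPKM under HFD beside 37.4 and 59.0 FPKM for *Dbp*, and had a log2 fold change of -0.14 (SE 0.25). *Hlf*, the other PAR bZIP activator, had 0.27 (SE 0.25), and *Nfil3*, which encodes the repressor at D-boxes, had -0.52 (SE 0.27). The differences between these estimates and that of *Dbp* were not tested. Of the activators' relatives, *Npas2* had 0.13 (SE 0.33) and *Arntl2* -0.24 (SE 0.35). Of the ROR receptors, which activate *Arntl* where REV-ERB represses it, *Rora* had 0.31 (SE 0.20) and *Rorb* -0.04 (SE 0.19). The E-box repressors *Bhlhe40* and *Bhlhe41* had -0.26 (SE 0.25) and 0.01 (SE 0.19), and *Ciart* had 0.13 (SE 0.27). The 10 kinase, ubiquitin ligase and deubiquitinase genes that set PER and CRY stability lay between -0.29 for *Btrc* and 0.29 for *Csnk1e*, and 0 of them passed an unadjusted p under 0.05 in edgeR's test, the most abundant being *Csnk1a1* at 89.3 FPKM.

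**Figure D5:**
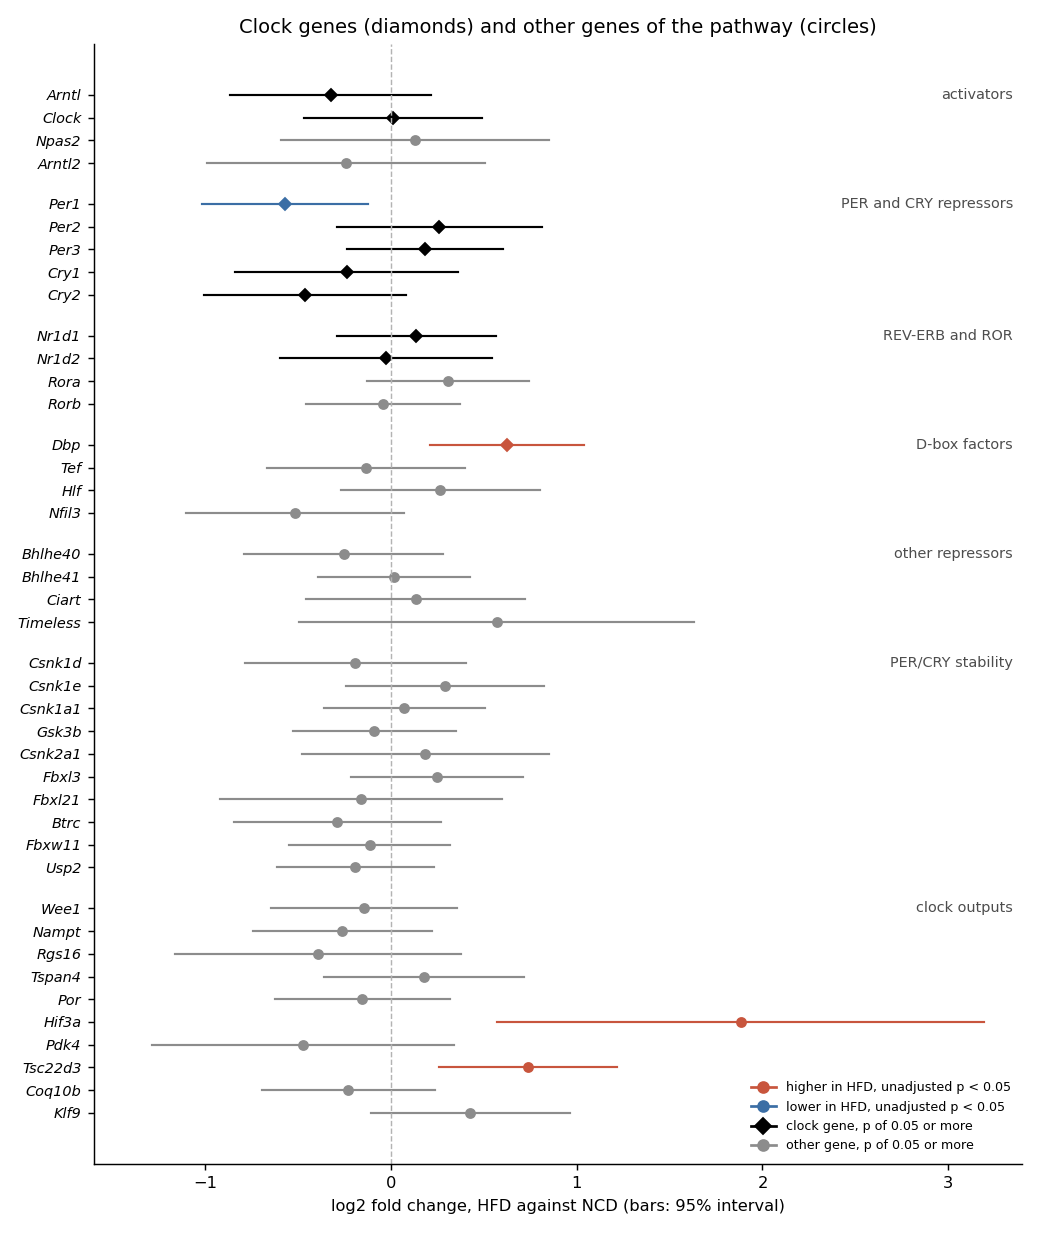
The forest plot gives the log2 fold change of HFD against NCD with its 95% interval for the clock genes (diamonds) and other genes of the pathway (circles), by role. *Dbp*, *Hif3a* and *Tsc22d3* lie above 0 and *Per1* below 0 with intervals that do not reach 0, and the intervals of all other genes shown include it.

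Genes of neuronal activity and of the glucocorticoid response were read in the same samples as *Per1* and *Dbp*. Both lists were written with earlier results of these data known, so the counts of genes passing are not separate results. Of 6 genes induced by neuronal activity, 5 fell in HFD at an adjusted p under 0.05 in edgeR's test, beside 0.0564% of all genes, and 6 were lower at an unadjusted p under 0.05, beside 1.09%, among them *Nr4a1* (log2 fold change -2.80, SE 0.24) and *Fos* (-2.39, SE 0.31). Their summed level was 421, 678 and 583 CPM in NCD1 to NCD3 and 120, 123 and 158 CPM in HFD1 to HFD3, with *Egr1*, *Fos* and *Junb* at similar levels per length in NCD (56.8, 54.98 and 54.2 FPKM). The estimate for *Per1* on the same log2 scale was -0.57. Of 8 glucocorticoid targets, 4 were higher (*Tsc22d3*, *Zbtb16*, *Sult1a1* and *Plin4*) and 2 lower (*Sgk1* and *Errfi1*) at an unadjusted p under 0.05, beside 1.21% and 1.09% of all genes, 2 did not pass in either direction, and 0 passed the adjusted threshold in edgeR's test. Their summed level was 320, 327 and 336 CPM in NCD and 479, 476 and 373 CPM in HFD. Nearly all of the difference between these sums lay in *Tsc22d3* (163 and 272 CPM), the most abundant gene of the list, which is also among the clock outputs above. The part of either set in the *Per1* and *Dbp* values was not tested.

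Markers of other cells that an ARC cut could hold were read beside the clock genes. Of 9 genes marking the suprachiasmatic nucleus, the defining *Vip* was counted 10, 6 and 5 times under NCD and 4, 5 and 26 times under HFD, and *Nms* 17, 14 and 5 times and then 4, 7 and 2 times, both below the filter for testing. Of the 7 tested, *Grp* was higher (log2 fold change 1.12, SE 0.49) and *Avp* lower (-1.71, SE 0.33) at an unadjusted p under 0.05. Over all genes, 1.21% were higher and 1.09% lower at that threshold. Neither *Grp* nor *Avp* passed the adjusted threshold in edgeR's test. The summed level of the list was 2444, 4942 and 2031 CPM in NCD and 1121, 999 and 904 CPM in HFD, nearly all of it *Avp*, which other hypothalamic neurons make too. Of 6 genes of the pituitary pars tuberalis, a rhythmic tissue below the ARC, *Cga* was higher (1.36, SE 0.54) at an unadjusted p under 0.05, beside 1.21% of all genes. *Cga* overlapped between the diets, at 9.39, 4.17 and 14.9 CPM in NCD1 to NCD3 and 14.7, 10.6 and 48.0 CPM in HFD1 to HFD3. Only HFD3 was above all NCD samples. The summed levels of 29.9, 23.3 and 49.95 CPM in NCD and 39.5, 25.4 and 82.2 CPM in HFD overlapped. The summed levels overlapped as well for neurons, astrocytes, oligodendrocytes, microglia, endothelium and the cells lining the ventricle, with *Snap25* the most abundant marker of neurons, *Slc1a3* of astrocytes, *Mbp* of oligodendrocytes, *Ly6c1* of endothelium and *Ccdc153* of the ventricle lining. At an unadjusted p under 0.05, beside 1.21% higher and 1.09% lower over all genes, *Gfap* of astrocytes and *C1qa* of microglia were higher. *Ly6c1* of endothelium and *Crym* and *Col23a1* of tanycytes were higher too, and *Cldn5* of endothelium was lower. Of the ARC markers, *Cartpt* and *Tac2* were higher. In edgeR's test 0 of these markers passed the adjusted threshold. Their lists did not share their direction throughout: the estimates were below 0 in 4 of 6 astrocyte genes, 4 of 6 microglia genes, 2 of 5 endothelial genes, 2 of 6 genes of the ventricle lining and 2 of 10 ARC markers. The part of cell composition in the clock gene values was not tested.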

How the data were processed

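RNA was enriched for mRNA with oligo(dT) beads and made into libraries with the NEBNext Ultra kit, per the labels. The authors removed reads that matched a ribosomal database (bowtie2), aligned the rest with HISAT2 and derived counts and FPKM with StringTie and RSEM. The submitters' processing notes name the build mm10. Versions, annotation and the use of strand are not given in the sources used here. The deposited counts were not normalized, and the deposited FPKM were scaled by the authors by transcript length and by mapped reads. Columns with the authors' own fold changes, p-values and FDR hold their findings and were not used.

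Sample titles give the letters C and H, which were read as NCD and HFD because the authors' group means equal the means of these columns in 22322 of 22322 genes within 0.0011 FPKM. The replicate numbers come from the titles. Of 22322 Ensembl identifiers, 22267 had a symbol in GENCODE M21 (GRCm38), from which positions (1-based), transcripts and overlaps were taken. Genes were filtered with filterByExpr, normalized with TMM (factors 0.967 to 1.04) and tested with edgeR's quasi-likelihood test with diet as the only term. CPM are counts scaled to the TMM-normalized library total, and log2 CPM for the exact permutation tests used a prior count of 2. The common biological coefficient of variation was 0.244. The implied length is the count divided by the FPKM and by the library total, in bases. Total counts of 5171381 to 15925648 set the precision, and reads carry no molecular identifiers.

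The clock genes and the gene lists were chosen with earlier results of these data known. Named genes are the 10 clock genes, genes of the pathway lists, and of the other lists the most abundant gene, genes with an unadjusted p under 0.05 and defining markers at 0, with genes that overlap a clock gene in the annotation; *Gm28040*, *Vip* and *Nms* were named after their values were seen. A few genes of the lists are counted but not reported by name here. The alternatives were normalization by RLE or by totals, the Wald test of DESeq2, a filter at 1 count or at a mean of 50 counts, the replicate block, depth as a covariate, each sample dropped in turn, and limma (trend, log2 of FPKM plus 1, mean FPKM of 0.5 or more). Counts summed with an antisense neighbour and ratios of counts were chosen after seeing the data. The fits were tested on simulated data. Analyses ran in R 4.3.3 with DESeq2 1.42.0, edgeR 4.0.16 and limma 3.58.1.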

Additional observations from a re-analysis of the deposited data

How the results depend on the processing

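The number of genes with an adjusted p under 0.05 was 8 in the edgeR fit. It was 19 with DESeq2's Wald test, 15 with all genes of at least 1 count, 15 with log2 depth as a covariate and 5 with limma on log2(FPKM + 1), and from 1 to 16 when a sample was left out; the causes were not tested. Of the clock genes, 2 had an unadjusted p under 0.05, and from 1 to 3 when a sample was left out. The 1 was *Dbp* (without NCD2, HFD1 or HFD2, where 1.58%, 1.36% and 4.6% of all genes passed), and the 3 were *Per1*, *Cry2* and *Dbp* (without NCD3, where 8.13% of all genes passed). None passed the adjusted threshold in any of the 15 alternatives, where the lowest adjusted p was 0.287 for *Per1* with log2 depth as a covariate. The sign of the estimate changed in some alternatives for *Cry1* (2 of 15), *Clock* (3 of 15) and *Nr1d2* (5 of 15), and in none for the other 7 clock genes.

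The samples share replicate numbers, but nothing says that the numbers pair them, and same-numbered samples correlated in their deviations from the group means at -0.01, 0.11 and 0.37. With the replicate block, 17 genes had an adjusted p under 0.05 and 3 clock genes an unadjusted p under 0.05, as did 4.15% of all genes, since *Cry2* (log2 fold change -0.44) joined *Per1* and *Dbp*.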
